A study of Mus musculus with 4 samples.

Results

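The T-box genes encode transcription factors that share a DNA-binding domain, the T-box, first known from Brachyury. Described here are 10 members, namely Tbx1, Tbx2, Tbx3, Tbx4, Tbx5, Tbx15, Tbx18, Tbx20, Tbx22 and Eomes. They were taken as every probe set that the platform annotation gives to exactly 1 of these symbols, which made 21 probe sets of 10 genes, of 34945 singly named probe sets of 18193 genes in all. Their transcripts were read on 4 mouse GeneChip arrays (Affymetrix), which measure each transcript near its 3' end with 1 or more sets of short probes. Hand2NC embryos (Hand2 CAT/+; Wnt1-Cre) carry a transgene that is switched on by Wnt1-Cre and so overexpress Hand2, a bHLH transcription factor, in the neural crest lineage, and were compared with wild-type (WT) embryos to find genes downstream of Hand2. The 4 groups were Hand2NC E12.5 heads, WT E12.5 heads, Hand2NC E11.5 whole bodies and WT E11.5 whole bodies, all on a mixed C57BL/6J x ICR background. The sample labels give the whole body for the younger embryos, whereas a figure legend of the study speaks of heads. The labels were followed, and the bright heart muscle and liver markers on both arrays of that stage stand beside this choice. RNA was pooled within a group before hybridisation, so that each group has 1 array, and differences between genotypes at 1 stage have no replicate check. The age and the sampled tissue changed together between the stages and cannot be told apart.

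T-box proteins bind DNA around a short core sequence and act as activators or repressors, often in opposed pairs that share targets. In the mouse embryo, Tbx5 and Tbx20 are cardiac regulators, Tbx5 and Tbx4 drive outgrowth of the forelimb and hindlimb buds, Tbx1 patterns the pharyngeal arches, and Tbx22 is needed in the palatal shelves. Eomes, also called Tbr2, marks intermediate progenitors of the cerebral cortex. Tbx2 and Tbx3 are mainly repressors, and both are used in the heart, limb, eye and face. Tbx15 and Tbx18 form a closely related pair that serves limb, trunk and head mesenchyme.

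The 4 promoter windows printed here are shown because their genes had among the clearest differences between E12.5 heads and E11.5 whole bodies. Tbx4, Tbx18 and Tbx20 were lower in heads and Eomes was higher. Each window has 300 bases around a RefSeq transcript start in GRCm38.p6, printed 5' to 3' along the gene, and capitals mark an E-box of the letters CATCTG or, on the other strand, CAGATG, the kind of site that bHLH dimers bind.
Tbx4, chr11:85896515-85896814, plus strand: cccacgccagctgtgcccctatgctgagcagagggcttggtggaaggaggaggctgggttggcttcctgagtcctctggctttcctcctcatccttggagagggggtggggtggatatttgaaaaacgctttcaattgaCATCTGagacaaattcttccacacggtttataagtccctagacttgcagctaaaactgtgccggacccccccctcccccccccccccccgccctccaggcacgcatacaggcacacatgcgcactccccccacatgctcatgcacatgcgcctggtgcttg
Tbx18, chr9:87731211-87731510, minus strand: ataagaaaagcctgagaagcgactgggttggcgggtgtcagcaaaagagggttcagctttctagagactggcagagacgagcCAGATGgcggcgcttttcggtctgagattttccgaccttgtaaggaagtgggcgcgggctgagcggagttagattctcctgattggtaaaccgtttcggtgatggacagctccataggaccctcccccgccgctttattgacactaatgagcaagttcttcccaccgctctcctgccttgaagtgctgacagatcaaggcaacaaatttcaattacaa
Tbx20, chr9:24774254-24774553, minus strand: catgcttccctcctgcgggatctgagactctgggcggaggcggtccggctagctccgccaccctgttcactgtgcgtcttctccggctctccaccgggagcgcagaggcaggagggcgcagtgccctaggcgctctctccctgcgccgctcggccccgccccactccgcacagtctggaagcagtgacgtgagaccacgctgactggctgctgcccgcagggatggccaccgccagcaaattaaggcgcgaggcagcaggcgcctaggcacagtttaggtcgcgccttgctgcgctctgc
Eomes, chr9:118477939-118478238, plus strand: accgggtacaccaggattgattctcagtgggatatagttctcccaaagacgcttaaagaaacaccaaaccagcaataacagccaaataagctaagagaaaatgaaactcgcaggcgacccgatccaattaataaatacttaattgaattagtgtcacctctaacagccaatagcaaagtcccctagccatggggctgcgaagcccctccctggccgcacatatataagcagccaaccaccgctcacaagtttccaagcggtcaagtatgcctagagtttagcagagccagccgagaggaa
The RefSeq table held 9 windows for 6 of the 10 genes. It held none for Tbx5, which was also lower in heads. Windows of Tbx1 and of Tbx22, which was also higher in heads, are not printed. The E-box letters stood in 2 of the 9 windows, those of Tbx4 and Tbx18, and in 17.2% of 32851 promoter windows of this length over all genes. The T-box core GGTGTG, or CACACC on the other strand, stood in 0 of the 9 windows and in 19.0% of all. The printed windows differed in base composition, with a GC content of 68.3% at Tbx20, 59.0% at Tbx4, 51.7% at Tbx18 and 47.3% at Eomes, against a median of 52.7% over all windows. A match of letters is a description and not evidence of binding.

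The Hand2 probe sets were read first as a check of the labels. Probe set 1422221_at had a signal of 706 in Hand2NC heads against 33.4 in WT heads, and 314 in Hand2NC whole bodies against 67.1 in WT whole bodies. Another probe set, 1436041_at, gave 839 in Hand2NC heads against 592 in WT heads, and 1244 against 1214 in Hand2NC and WT whole bodies. Hand2 was thus higher in both Hand2NC pools by the first probe set, and by the second the whole bodies were nearly equal. The 3 Y-linked marker genes with a named probe set were far dimmer on the Hand2NC E12.5 array than on the other 3 arrays, with Kdm5d at 8.72 there against 677 in WT heads, so the E12.5 pools differed in Y-linked signal. All 9 heart muscle markers lay above the array median on both E11.5 arrays, as 4 did on both head arrays. Median signals were 102 on the Hand2NC E12.5 array, 106 on the WT E12.5 array, 101 on the Hand2NC E11.5 array and 97.2 on the WT E11.5 array.

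**Figure D1:**
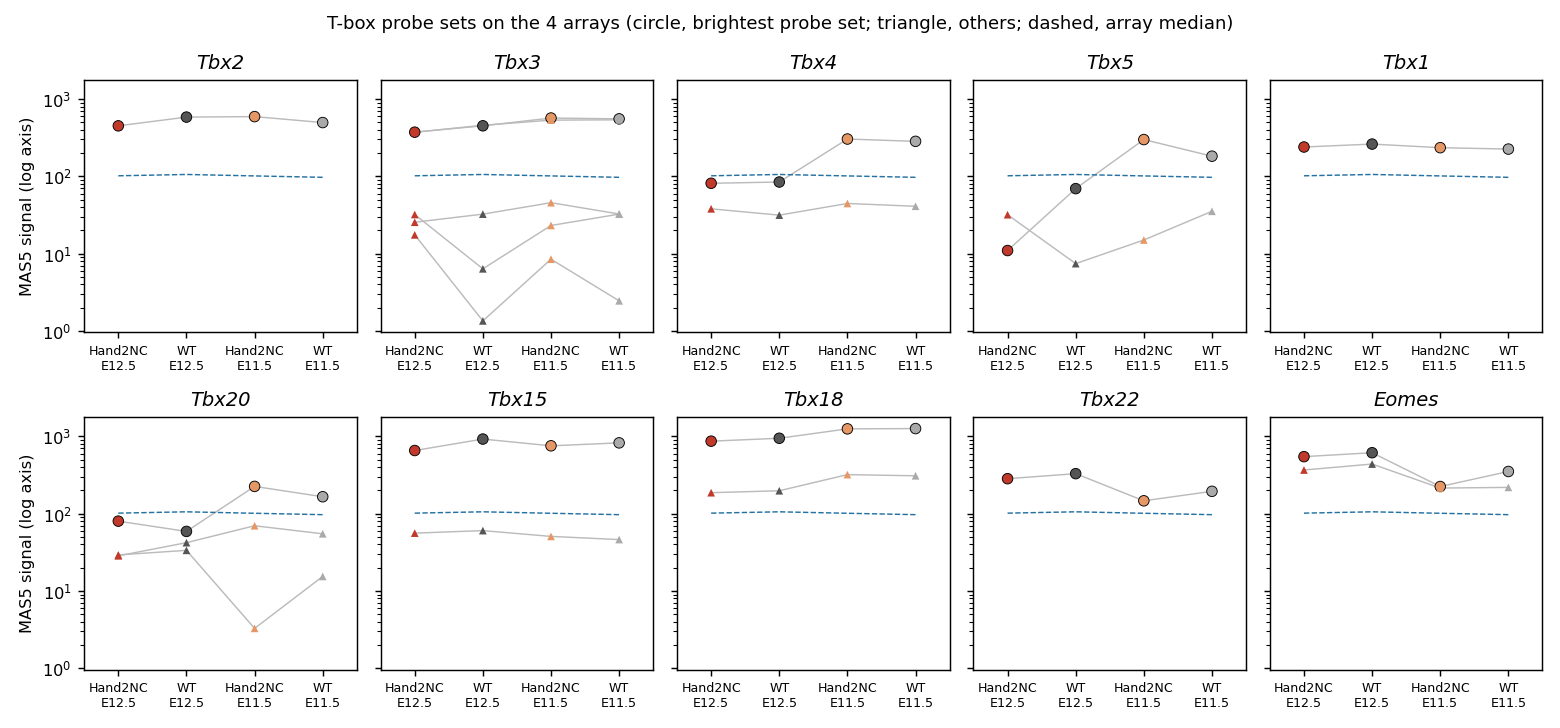
Signal of every T-box probe set on the 4 arrays, 1 panel a gene, with a log vertical axis. Circles are the brightest probe set of a gene, triangles the others, and the dashed line is the median of each array. Tbx4, Tbx5 and Tbx20 lie above the median in whole bodies and below it in heads, while Eomes and Tbx22 are brighter in heads.

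A signal is a MAS5 intensity after scaling every array to the same trimmed mean, and it can be compared between arrays for 1 probe set but not between probe sets. For each gene, the main probe set is the one that was brightest on average across the arrays, on the log2 scale. A probe set was counted as changed between 2 arrays when its signals differed at least 2-fold and the brighter one reached the median of its array. Of the 21 probe sets, 13 passed this signal filter for the comparison of heads with whole bodies in each genotype. Tbx4, Tbx5 and Tbx20 passed only through the whole bodies, so counts below refer to all 21 probe sets. The other 8 probe sets stayed below the median on all arrays: 3 of Tbx3, 2 of Tbx20 and 1 each of Tbx4, Tbx5 and Tbx15.

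Between E12.5 heads and E11.5 whole bodies, 3 T-box genes with roles in heart and limb were lower in heads and Eomes was higher. In Hand2NC, 3 of 21 probe sets were at least 2-fold lower and 1 was higher, against 2.25% lower and 2.65% higher of all probe sets above the filter. In WT the counts were likewise 3 lower and 1 higher, against 2.36% lower and 4.76% higher of all. The 3 lower ones were Tbx4, Tbx5 and Tbx20 in both genotypes, whereas the higher one was Eomes through different probe sets, 1435172_at in Hand2NC and 1426001_at in WT. By main probe sets, 3 of the 10 genes were lower in heads in both genotypes and 0 were higher in both. The shares were 1.72% and 1.92% of the 11801 genes above the filter in both genotypes. All 3 lay below the array median in both heads, and with dim values raised to that median Tbx4 alone stayed at least 2-fold lower in both genotypes, so the count rests on dim head signals.

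The difference between heads and whole bodies was also tested with limma on all 45037 probe sets, with genotype as a covariate, so that the 2 genotypes served as the 2 arrays of each stage. Of the 21 probe sets, 9 passed an adjusted p of 0.05, 3 higher and 6 lower in heads, against 7.18% higher and 5.69% lower of all probe sets, and 11 had an unadjusted p under 0.05. The fit has 1 residual degree of freedom and borrows its spread from the other probe sets along a trend in signal. Without that trend, limma called 0 of 45037 probe sets, and 6 of the 21 had an unadjusted p under 0.05. The fits with 1 array left out, given below, had no genotype covariate, so they differ from the main fit by more than the missing array.

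**Figure D2:**
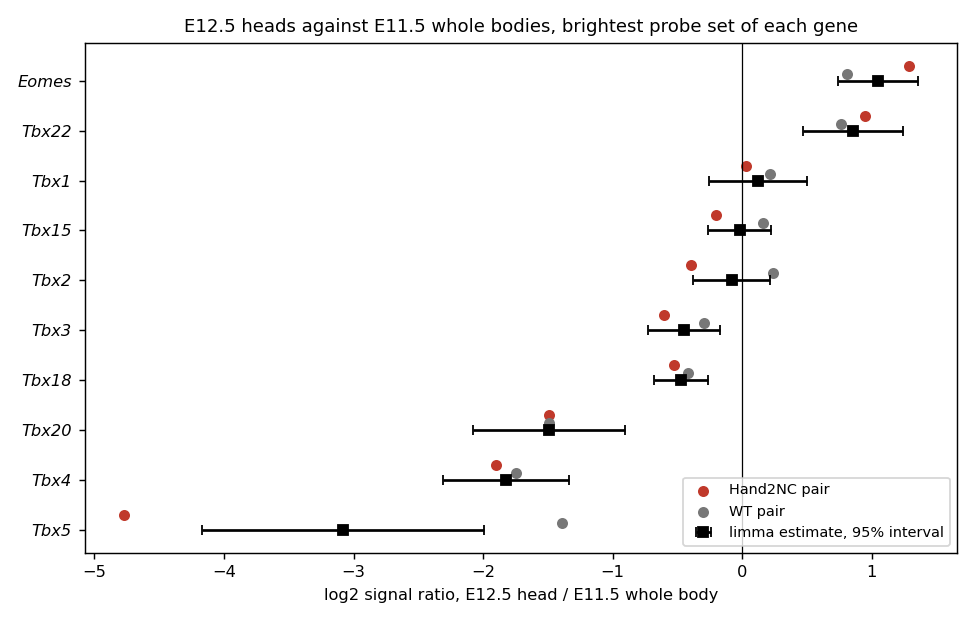
Log2 ratio of E12.5 head to E11.5 whole body for the main probe set of each gene. Red points are the Hand2NC pair of arrays, grey points the WT pair, and black squares the limma estimate with its 95% interval. Tbx5, Tbx4 and Tbx20 lie furthest to the left, at estimates of -3.08, -1.82 and -1.49, and Eomes furthest to the right at 1.05.

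Tbx4, which drives hindlimb outgrowth, was lower in heads. Its main probe set 1456033_at had signals of 81.4 in Hand2NC heads and 84.5 in WT heads, against 304 in Hand2NC whole bodies and 284 in WT whole bodies. The 2 genotypes were close at each stage and the stages did not overlap. The log2 difference was -1.82 ± 0.23 (SE, limma adjusted p = 1.3e-05). With each array left out in turn, and no genotype covariate, it lay between -1.87 and -1.77. Tbx4 lies next to Tbx2 on chromosome 11, with 0 protein-coding gene starts between them in RefSeq. Tbx2 did not pass the same test.

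Tbx5, which acts in the atria, the left ventricle, the forelimb and the dorsal retina, was lower in heads, most of all in Hand2NC, where its head signal was very dim. In WT the differences of Tbx4 and Tbx20 were larger. Its main probe set 1425695_at had signals of 10.97 in Hand2NC heads and 69.4 in WT heads, against 299 in Hand2NC whole bodies and 182 in WT whole bodies. Both heads lay below the array median, and below both whole bodies. The log2 difference was -3.08 ± 0.52 (SE, limma adjusted p = 0.00033), but without the Hand2NC E11.5 array or without the WT E11.5 array the gene was no longer called, with adjusted p-values of up to 0.21. Raising every dim value to the array median reduced the log2 difference to -1.56 in Hand2NC, against -4.77 as measured, and to -0.79 in WT, against -1.39 as measured. The second probe set, 1425694_at, gave 31.9 in Hand2NC heads, 7.43 in WT heads, 15.0 in Hand2NC whole bodies and 35.3 in WT whole bodies, all below the median. Heads lay below whole bodies with this probe set in WT and above them in Hand2NC.

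By distance of centred log2 signals over the 4 arrays, the genes nearest to Tbx5 among 11846 candidates were Slc2a2 (0.89), Afm (0.91), Lrrn4 (1.09), Apoh (1.16) and Serpind1 (1.22). Slc2a2, which encodes a glucose transporter, had signals of 2.71 in Hand2NC heads and 18.6 in WT heads, against 103 in Hand2NC whole bodies and 99.8 in WT whole bodies. Likeness over 4 arrays that differ mainly between stages describes these arrays only. It rests in part on dim signals, as Tbx5 and all of these genes lay below the array median in both heads. In Hand2NC heads Afm was at 4.97 and Serpind1 at 33.8. The distances used the main probe set of Tbx5, and its second probe set ran differently.

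Tbx20, which is needed for growth of the heart chambers, was lower in heads by its main probe set 1453351_at. The signals were 80.1 in Hand2NC heads and 59.0 in WT heads, against 226 in Hand2NC whole bodies and 166 in WT whole bodies. Heads lay below whole bodies in both genotypes, and Hand2NC lay above WT at both stages. The log2 difference between stages was -1.49 in each genotype and -1.49 ± 0.28 by limma (SE, adjusted p = 0.00096). Both head signals were below the array median, and with dim values raised to it the difference was -1.15 in Hand2NC and -0.65 in WT, which is under 2-fold. The limma difference was called with 1 of the 4 arrays left out, the Hand2NC E12.5 array, at adjusted p-values of 0.020 to 0.12 over the 4. Probe set 1422219_a_at went the other way, with 29.3 in Hand2NC heads and 33.6 in WT heads, against 3.28 in Hand2NC whole bodies and 15.4 in WT whole bodies, all below the median (adjusted p = 0.15).

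Some of the genes that act with these factors differed likewise. Of 13 heart field and chamber genes with a named probe set, 4 were at least 2-fold lower in heads in both genotypes. They were Nppa, Nppb, Gata6 and Smpx, and 0 genes were higher. Nppa and Nppb passed the filter only through the whole bodies, as both head signals lay below the array median. Gata6 lay below the median in WT heads. Of the 13, 6 lay above the filter in both genotypes, and the shares over all genes above it were 1.72% and 1.92%. Of the same 13, limma called 5 lower and 1 higher, against 5.69% and 7.18% of all probe sets. Genes of the lists here and below were read by their brightest probe set, whereas these limma shares include every dim probe set. Nppa, which encodes atrial natriuretic peptide, had signals of 56.2 in Hand2NC heads and 18.8 in WT heads, against 1128 in Hand2NC whole bodies and 1119 in WT whole bodies. Of 12 limb genes, 2 were lower in both genotypes, Hoxd13 and Hoxa11, which pattern the distal limb and the forearm level. Both passed the filter only through the whole bodies. Of the 12, limma called 4 lower and 0 higher, beside the same background shares. Pitx1, which lies upstream of Tbx4 in the hindlimb, had 581 in Hand2NC heads and 323 in WT heads, against 398 in Hand2NC whole bodies and 327 in WT whole bodies.

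Markers of trunk tissues differed in the same direction. In heads, 8 of 9 heart muscle markers and 6 of 7 liver markers were at least 2-fold lower in both genotypes. So were 3 of 4 epicardial markers and 5 of 7 posterior trunk and limb markers. Of the 7, Hoxa11, Hoxd11, Hoxd12 and Hoxd13 are also in the limb list above, so these counts overlap. On each head array 4 of 9 heart muscle, 2 of 7 liver and 0 of 4 epicardial markers lay above the median. Markers below it in heads could pass the filter only through the whole bodies. The share over all genes above the filter in both genotypes was 1.72%. The summed signal of the heart muscle markers was 6812 in Hand2NC heads and 6031 in WT heads, against 25037 in Hand2NC whole bodies and 24246 in WT whole bodies. That of the posterior trunk and limb markers was 68.9 in Hand2NC heads and 74.3 in WT heads, against 2908 in Hand2NC whole bodies and 2824 in WT whole bodies, with 0 of 7 above the median in either head array. The part of these tissues in the T-box differences was not tested. In bulk RNA, fewer cells of a type and less RNA per cell cannot be told apart.

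Tbx18, a factor of the epicardium, the somites and the head mesenchyme, was moderately lower in heads with both of its probe sets. Probe set 1429974_at had 868 in Hand2NC heads and 947 in WT heads, against 1252 in Hand2NC whole bodies and 1263 in WT whole bodies. Probe set 1449871_at had 187 in Hand2NC heads and 198 in WT heads, against 320 in Hand2NC whole bodies and 309 in WT whole bodies. The stages did not overlap with either, and the log2 differences were -0.47 ± 0.10 (SE, limma adjusted p = 0.0031) and -0.71 ± 0.18 (adjusted p = 0.0095). With 1 array left out, the first was called only without the WT E12.5 array (adjusted p-values of 0.040 to 0.080) and the second under none (0.062 to 0.11). The epicardial markers summed to 176 in Hand2NC heads and 95.6 in WT heads, against 1046 in Hand2NC whole bodies and 1032 in WT whole bodies, and their part in the Tbx18 difference was not tested.

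Tbx3, a repressor that acts in the limb, heart and palate, was lower in heads with its 2 bright probe sets. Probe set 1448029_at had 373 in Hand2NC heads and 451 in WT heads, against 568 in Hand2NC whole bodies and 554 in WT whole bodies. The log2 difference was -0.45 ± 0.13 (SE, limma adjusted p = 0.027), but it was lost with any 1 array left out (adjusted p-values of 0.057 to 0.22) and with 32 added to every signal before log2. Probe set 1437479_x_at had 372 in Hand2NC heads and 458 in WT heads, against 534 in Hand2NC whole bodies and 539 in WT whole bodies, and did not pass (-0.38 ± 0.13, adjusted p = 0.071). Both probe sets gave the same order of arrays within the heads, with Hand2NC below WT. Tbx3 lies next to Tbx5 on chromosome 5, with 0 protein-coding gene starts between them.

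Eomes was higher in heads with both probe sets. Probe set 1435172_at had 547 in Hand2NC heads and 615 in WT heads, against 225 in Hand2NC whole bodies and 352 in WT whole bodies. Probe set 1426001_at had 368 in Hand2NC heads and 439 in WT heads, against 215 in Hand2NC whole bodies and 219 in WT whole bodies. All heads lay above all whole bodies, and the log2 differences were 1.05 ± 0.15 (SE, limma adjusted p = 4.6e-05) and 0.89 ± 0.16 (adjusted p = 0.00069). With 1 array left out, the first was lost only without the WT E12.5 array (adjusted p-values of 0.012 to 0.093), and the second was called only without the Hand2NC E12.5 array (0.017 to 0.062).

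Genes of the cerebral cortex rose with Eomes in the limma fit, where all 9 with a named probe set of the cortex list were higher in heads, against 7.18% of all probe sets. By the fold count, 5 of the 9 were at least 2-fold higher in heads in both genotypes, against 1.92% of genes above the filter. Pax6, which lies upstream of Eomes in cortical progenitors, had 1148 in Hand2NC heads and 1220.2 in WT heads, against 540 in Hand2NC whole bodies and 547 in WT whole bodies. Tbr1, itself a T-box gene and a marker of the neurons that follow the Eomes stage, had 368 in Hand2NC heads and 351 in WT heads, against 139 in Hand2NC whole bodies and 120 in WT whole bodies. Its log2 difference was 1.48 ± 0.19 (SE, limma adjusted p = 1.5e-05). Of the 5 other T-box genes with a named probe set (Tbr1, Tbx6, Tbx19, Tbx21 and Mga), Tbr1 was the 1 that passed. All 5 forebrain markers were higher in heads by limma, and 3 of the 5 were at least 2-fold higher in both genotypes. Of these markers, Emx1, Emx2 and Lhx2 are also in the cortex list, so the counts overlap. The summed signal of the 5 was 5623 in Hand2NC heads and 5859 in WT heads, against 2722 in Hand2NC whole bodies and 2765 in WT whole bodies. The part of the share of forebrain in the Eomes difference was not tested.

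Tbx22, an X-linked repressor of the palate, was higher in heads. Its single probe set 1438586_at had 284 in Hand2NC heads and 330 in WT heads, against 147 in Hand2NC whole bodies and 195 in WT whole bodies. The log2 difference was 0.85 ± 0.19 (SE, limma adjusted p = 0.0034), and with 1 array left out it was called only without the WT E11.5 array (adjusted p-values of 0.048 to 0.15). Of 8 palate genes with a named probe set, 0 were 2-fold different in both genotypes, and limma called 1 higher and 1 lower, against 7.18% and 5.69% of all probe sets, which is too near the background to say anything of the list. Mn1, a factor that lies upstream of Tbx22 in the palate, had 1946 in Hand2NC heads and 2112 in WT heads, against 1344 in Hand2NC whole bodies and 1226 in WT whole bodies.

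Tbx1, Tbx2 and Tbx15 did not pass the test. Tbx1, which is active in pharyngeal endoderm and mesoderm, had 240 in Hand2NC heads and 261 in WT heads, against 235 in Hand2NC whole bodies and 225 in WT whole bodies. Its log2 difference was 0.12 with a 95% interval of -0.25 to 0.50. A 2-fold change lay outside this interval. Its width, like those below, comes mostly from other probe sets and does not measure the spread between embryos. The interval was -0.38 to 0.22 for Tbx2, around -0.08, and -0.26 to 0.22 for Tbx15, around -0.02. These last estimates average stage differences of opposite sign in the genotypes. For Tbx2 the log2 difference was -0.40 in Hand2NC and 0.23 in WT, and for Tbx15 it was -0.20 and 0.16. Of 11 pharyngeal genes with a named probe set, 0 were 2-fold different in both genotypes, and limma called 1 higher and 1 lower, as it called 2 higher and 1 lower of 10 somite and dermis genes, against 7.18% and 5.69% of all probe sets, so nothing is read from these counts. Of 8 eye genes with a named probe set, limma called 4 higher and 0 lower, beside the same shares, and Six3, an early eye and forebrain factor, was at least 2-fold higher in both genotypes.

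Between Hand2NC and WT, none of the 21 probe sets of the 10 genes reached 2-fold above the filter at either stage. At E12.5 the count was 0 of 21 probe sets, against 0.907% of all probe sets above the filter. By main probe sets it was 0 of 10 genes, against 0.398% of all genes above the filter. At E11.5 the count was 0 of 21 probe sets and 0 of 10 genes, against 0.787% of probe sets and 0.446% of genes above the filter. At these background shares a count of 0 among 21 is no result about the family. Single differences were therefore set beside the local spread, which is the robust SD of the log2 ratio over the 500 probe sets nearest in mean signal. It includes both error and true differences. The spread is a scale and not a cutoff for a call, and the share of all probe sets beyond it was not counted. The genotype term of the limma fit over both stages called 0 of 21 probe sets, against 0.0244% of all (11 of 45037), while 2 of the 21 had an unadjusted p under 0.05.

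**Figure D3:**
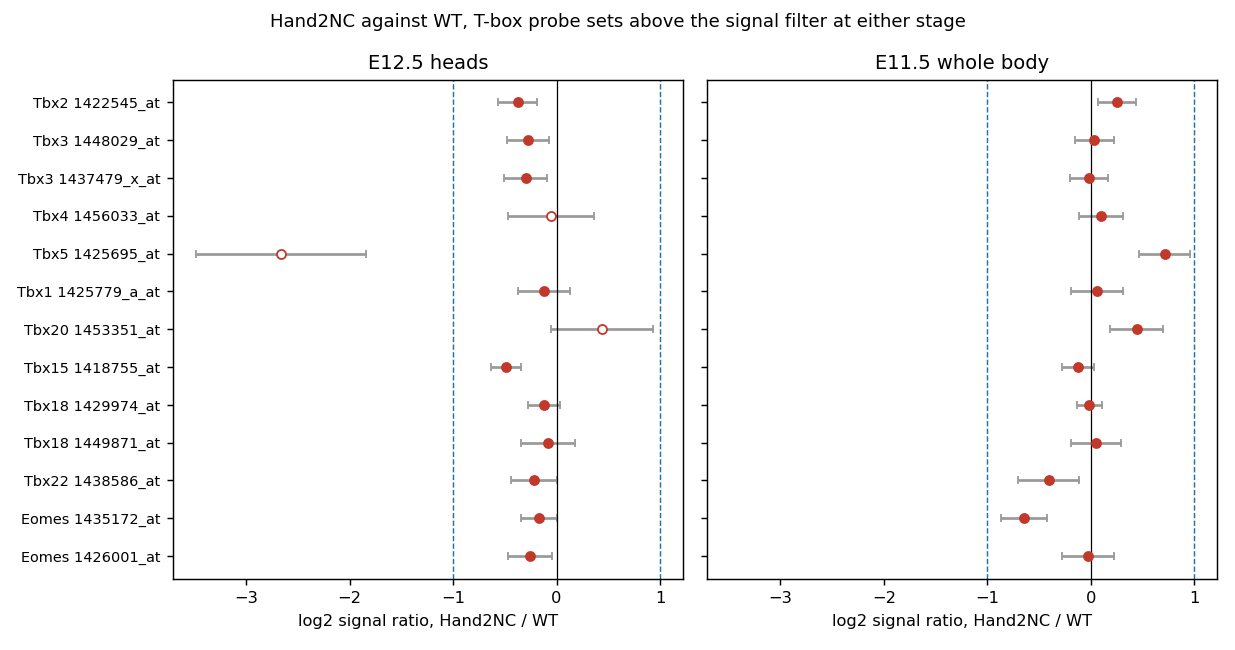
Log2 ratio of Hand2NC to WT for the 13 T-box probe sets above the signal filter at either stage, in E12.5 heads (left) and E11.5 whole bodies (right). Bars are the local spread, open points are below the filter at that stage, and dashed lines mark a 2-fold difference. In heads all 10 filled points lie below 0, from -0.49 for Tbx15 to -0.08 for Tbx18.

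In E12.5 heads, T-box signals were mostly lower in Hand2NC than in WT. The E12.5 pools also differed in Y-linked signal, and the part of sex in the head ratios here and below was not tested. Only 10 of the 21 probe sets lay above the filter in heads. Of the 21 probe sets 16 were lower, and of the 10 main probe sets 9 were lower and Tbx20 was higher, while 8 of 10 were lower when each array was centred on its median. The main probe sets of Tbx4, Tbx5 and Tbx20 lay below the filter in heads. The median log2 ratio was -0.17 over the 21, against -0.01 over all 45037 probe sets, and 51.4% of all were lower. Of all genes, by main probe set, 49.5% were lower. In E11.5 whole bodies 12 of the 21 were higher and 9 lower, with a median of 0.05 against -0.01 over all probe sets, and 6 of 10 main probe sets were higher, or 5 of 10 with median centring. At that stage 50.9% of all probe sets and 53.3% of all genes were lower. The main probe sets of 4 genes, Tbx2, Tbx3, Tbx5 and Tbx15, were lower in heads by more than their local spread, and that of Tbx5 was below the filter. The share of all genes past the same bound was not counted, so nothing is read from this number.

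Tbx15, a factor of dermis and skeletal mesenchyme, had the largest difference in heads among the probe sets above the filter, also relative to its spread. Its main probe set 1418755_at had 657 in Hand2NC heads against 924 in WT heads, a log2 ratio of -0.49 at a local spread of 0.15. In whole bodies it had 756 in Hand2NC against 825 in WT, a log2 ratio of -0.13 at a spread of 0.15. The direction was shared by both stages. The genotype term was -0.31 ± 0.12 (SE), with a limma adjusted p = 0.87 over all probe sets, and its unadjusted p was 1 of the 2 under 0.05. Its other probe set, 1422195_s_at, lay below the median on all 4 arrays, between 46.3 and 60.4.

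Tbx2 went opposite ways at the 2 stages. Its only probe set 1422545_at had 450 in Hand2NC heads against 584 in WT heads, a log2 ratio of -0.38 at a local spread of 0.19. In whole bodies it had 593 in Hand2NC against 497 in WT, a log2 ratio of 0.26 at a spread of 0.18. Its relative Tbx3 had log2 ratios of -0.27 and -0.30 in heads with its 2 bright probe sets, at spreads of 0.20 and 0.21, and of 0.04 and -0.01 in whole bodies. In heads both repressors were thus lower in Hand2NC by somewhat more than the local spread.

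Of the 3 dim probe sets of Tbx3, 2 gave positive ratios in heads, with 17.5 in Hand2NC against 1.35 in WT for 1444594_at, a log2 ratio of 3.70 at a spread of 2.75. For 1439567_at they were 32.1 in Hand2NC against 6.36 in WT, a log2 ratio of 2.33 at a spread of 1.53. These signals lay far below the array median, and the bright probe sets of the gene went the other way, as did the third dim one, 1445757_at, with 25.5 in Hand2NC heads against 32.5 in WT heads, a log2 ratio of -0.35 at a spread of 0.80.

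Eomes was lower in Hand2NC whole bodies with 1 of its 2 probe sets. Probe set 1435172_at had a log2 ratio of -0.65 at a spread of 0.23, while 1426001_at, with nearly equal signals of 215 and 219 in Hand2NC and WT, had -0.03 at a spread of 0.25. In heads the ratios were -0.17 and -0.26 at spreads of 0.17 and 0.21. The genotype term for the first was -0.41 ± 0.15 (SE), with a limma adjusted p = 0.85, and its unadjusted p was the other of the 2 under 0.05. The 2 probe sets therefore differed on the size of the whole-body difference, and Tbr1 had a log2 ratio of 0.07 in heads and 0.21 in whole bodies.

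Tbx5 and Tbx20 were higher in Hand2NC whole bodies than in WT by more than the local spread, with log2 ratios of 0.71 at a spread of 0.25 and 0.44 at a spread of 0.26. In heads, where both lay below the median, Tbx5 had -2.66 at a spread of 0.82 and Tbx20 had 0.44 at a spread of 0.49. With dim values raised to the median the Tbx5 ratio in heads became -0.06, and the second Tbx5 probe set had ratios of 2.10 in heads and -1.23 in whole bodies, opposite to the main one at both stages. The dim Tbx20 probe sets also went another way, with -2.23 in whole bodies and -0.20 in heads for 1422219_a_at, and -0.57 in heads and 0.34 in whole bodies for 1425158_at. The summed signal of the heart muscle markers in whole bodies, 25037 in Hand2NC against 24246 in WT, is given beside these values, and the part of heart tissue in them was not tested. Tbx4 had log2 ratios of -0.05 in heads and 0.10 in whole bodies, both within the spread.

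Tbx22 had log2 ratios of -0.22 at a spread of 0.22 in heads and -0.41 at a spread of 0.29 in whole bodies. As the gene is X-linked and Y-linked signal differed between the E12.5 pools, Xist is given beside it, at 16187 in Hand2NC heads against 8988 in WT heads, and 10567 in Hand2NC whole bodies against 11947 in WT whole bodies, and the part of sex in the Tbx22 ratio was not tested. Tbx1 had ratios of -0.13 in heads and 0.06 in whole bodies, and Tbx18 had -0.13 and -0.01 with its main probe set, all within the spread.

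Among the genes around these factors, 0 members of the heart, limb, pharyngeal, palate, eye, cortex, somite and dermis, and other T-box lists had a main probe set past 2-fold above the filter between genotypes at either stage. Of the 4 mandibular arch markers, 2 were higher and 2 lower in Hand2NC heads than in WT heads, with a median log2 ratio of -0.11. Gsc, a homeobox factor of the lower jaw, was past 2-fold in heads, with 320 in Hand2NC against 156 in WT, a log2 ratio of 1.03. The others had head log2 ratios of 0.17 for Dlx5, -0.46 for Dlx6 and -0.40 for Hand1, which lay below the filter. Mga, a T-box gene that also carries a bHLH domain, had probe sets that differed, with 196 in Hand2NC heads against 483 in WT heads for 1431232_a_at, a log2 ratio of -1.30, and 1043 against 1133 in Hand2NC and WT heads for its main probe set 1434746_at, a log2 ratio of -0.12.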

How the data were processed

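RNA of each of the 4 groups was hybridised to 1 array of 1 colour. What the authors deposited is a linear intensity per probe set from MAS5, a tool listed in the submitters' processing notes without its version, for 45101 probe sets with no detection calls. Every value column could be tied to a sample (0 could not). After removal of 64 controls, arrays were brought to a 2% trimmed mean of 500 and transformed to log2. Gene symbols came from the platform annotation, with 1 symbol for 34945 probe sets, several for 932 and none for 9160, and 34741 of the singly named ones have their identifier in a RefSeq gene table (GRCm38.p6). Promoter windows came from RefSeq.

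By the naming rule, all 10 genes are named, with their other probe sets where these go another way, and list members past 2-fold, at most 4 a list. Pitx1, Mn1, the second Mga probe set, Xist and Kdm5d were added after their values were seen. The members and lists were chosen with earlier results of these data known. Stage and genotype were terms of a limma fit (lmFit, eBayes with trend) with Benjamini-Hochberg adjustment over all probe sets. With 2 arrays on each side, its p-values measure the spread between pools of different genotype and between similar probe sets, not between embryos. The counts and the fit were tested on simulated data. Python 3.11.15, pandas 2.3.3, R 4.3.3 and limma 3.58.1 were used. Alternatives were 3 other scalings, a loess fit, other filters, raised dim values, other limma settings and leaving out each array together with the covariate.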

Additional observations from a re-analysis of the deposited data

Results flagged for a closer look

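The Hand2NC to WT difference of Tbx2 had opposite signs at the 2 stages, -0.38 in E12.5 heads and 0.26 in E11.5 whole bodies on the log2 scale, each beyond its local spread of 0.19 and 0.18. The difference between them was -0.63 and was not tested, since each group has 1 array.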

How the results depend on the processing

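Under 3 other scalings and a loess fit, all 84 log2 differences of single probe sets (21 in 4 comparisons) kept to within the local spread of the main value, and 15 moved and 69 did not once dim values were set to the median of their array. Median centring moved the median of all probe sets for WT heads against whole bodies to -0.11, against 0.02. The counts past 2-fold depended on the filter. Without one they were 3 between genotypes at E11.5, 4 at E12.5, 7 between stages in WT and 8 in Hand2NC. With both arrays at or above their medians they were 1 in WT and 1 in Hand2NC between stages, with the 75th percentile 0 in WT and 1 in Hand2NC, and with dim values raised 2 in WT. limma called 0 probe sets between stages without the variance trend and 2 to 5 with 1 array left out: 2 without Hand2NC E11.5, 3 without WT E11.5, 5 without Hand2NC E12.5 and 3 without WT E12.5, where the lone array is assumed to vary like the others. The cause was not tested. No paired analysis was possible because the labels carry no replicate numbers to pair by, though the limma fit compares the stages within each genotype through its genotype covariate. Precision is limited by 1 array a group and by signals below the array median, where 8 of the 21 probe sets lie on all arrays.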
